A study of Mus musculus with 6 samples.

Results

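Adipokines are the hormones and other proteins that fat cells secrete, and the 10 genes described here are 9 that encode secreted adipokines together with Lepr, which encodes the receptor of leptin. They were taken by gene symbol from the table of normalized values that the authors deposited, as the rows Adipoq, Lep, Lepr, Retn, Cfd, Rbp4, Nampt, Apln, Rarres2 and Lcn2, and all 10 were found among its 17924 genes. The study asked what the loss of Nelfb, a subunit of the negative elongation factor NELF that holds RNA polymerase II near gene starts, does to adipocyte differentiation. Fibroblasts were isolated from the dorsal dermis of newborn C57BL/6J mice, kept for 14 days in adipocyte differentiation medium, and sequenced as bulk RNA in 3 CTL and 3 Nelfb-/- libraries. Nelfb-/- cells carried Nelfb fl/fl and Pdgfra-Cre, and CTL cells carried Pdgfra-Cre with Nelfb fl/wt or wt/wt, so that the mice of both groups carried the Cre transgene. The labels do not say which of these 2 control genotypes each CTL library had. Cre was driven by the Pdgfra promoter, which is active in fibroblasts and adipocyte precursors and not in every cell that a dermal culture can hold. In bulk RNA of such cultures, fewer cells of a type and less RNA per cell cannot be told apart.

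Leptin is released by fat cells in step with their lipid stores and acts on the brain to limit food intake, through a cytokine-type receptor that signals by the kinase JAK2 and the transcription factor STAT3. Adiponectin circulates as disulfide-linked multimers and raises insulin sensitivity, whereas resistin, which in mice comes from adipocytes, opposes it. Adipsin, the product of Cfd, is factor D of the alternative complement pathway, and the other members carry retinol, make a precursor of NAD, attract leukocytes, act on blood vessels or bind bacterial siderophores.

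The members moved in both directions. Lep and Lepr were the members that rose in Nelfb-/- cells, by 38.4-fold and 8.39-fold as fitted with 1 read added. With 1 library left out their log2 fold changes ranged from 4.58 to 6.19 and from 2.41 to 3.62. Retn, Rarres2 and Nampt fell, by 4.35-fold for Retn. Adipoq, Cfd and Rbp4 had lower mean values without passing the test, and Apln and Lcn2 overlapped between the groups and did not pass either. All 10 members passed the filter on low values, a mean of 10 reads per library, which is 0.448 CPM (reads assigned to the gene for every 1e+06 assigned reads). In limma, 5 members passed an adjusted p of 0.05 and a 2-fold change, 2 higher and 3 lower, among 16252 genes of which 11.2% passed. The limma count of members was 0 without CTL 2 and without Nelfb-/- 3 (with 6 members at an unadjusted p under 0.05 in each fit), 2 without CTL 1 and without Nelfb-/- 2, and 6 without CTL 3. Without moderation of the variances in limma it was 0 as well, with 5 members at an unadjusted p under 0.05. Of all genes tested, 7.58% passed as higher and 3.64% as lower. The 3 Nelfb-/- libraries lay wholly apart from the 3 CTL libraries at 6 members, 4 below and 2 above, against 38.1% of all genes tested. The median log2 fold change was -1.24 over the 10 members and 0.07 over all genes tested.

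**Figure D1:**
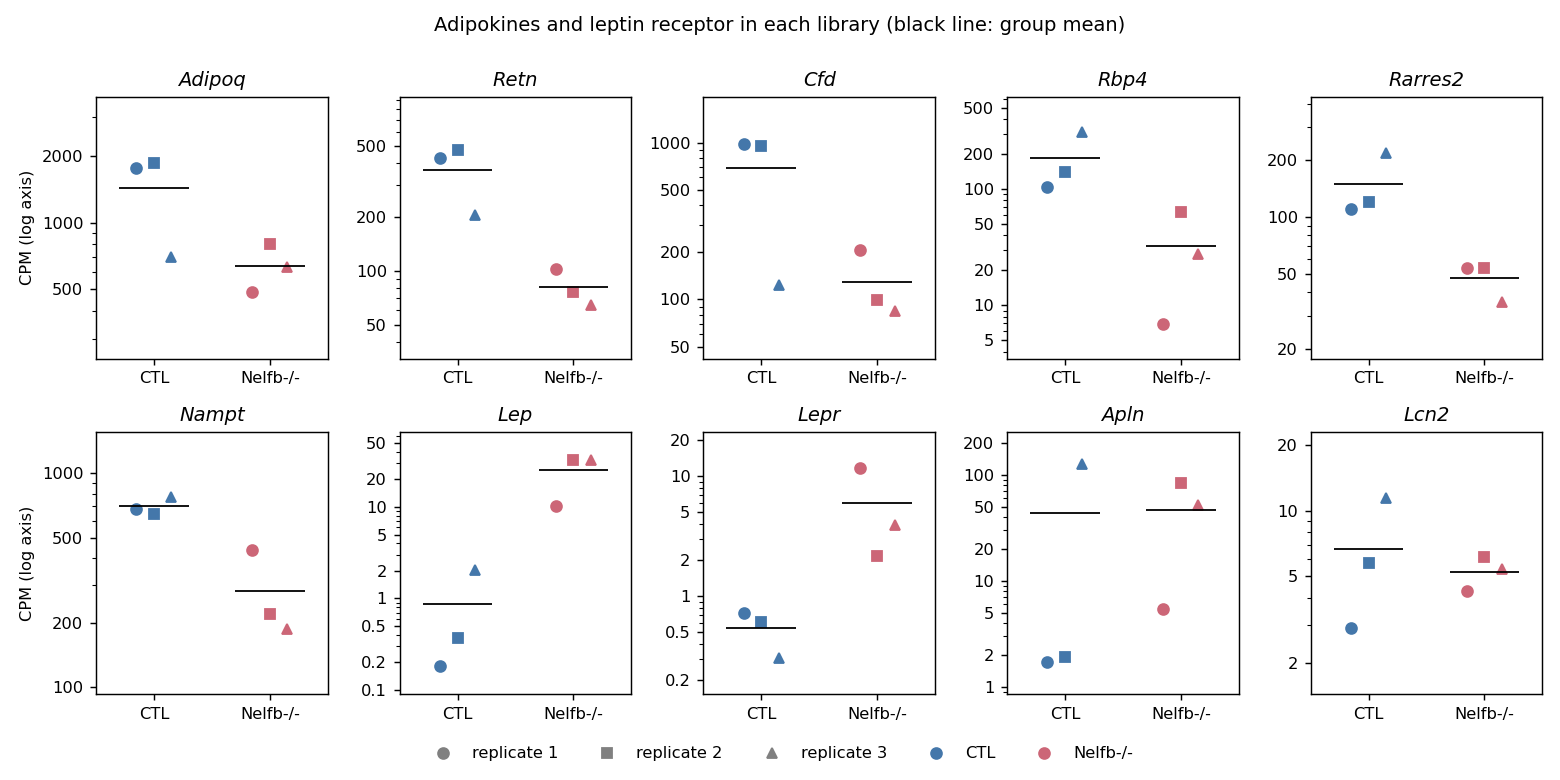
Reads per 1e+06 reads (CPM, log axis) of the 10 members in each of the 3 CTL and 3 Nelfb-/- libraries, with 1 point per library and the group mean as a black line. Lep and Lepr are higher in every Nelfb-/- library, Retn, Rbp4, Rarres2 and Nampt are lower in every one, and CTL 3 lies apart from the other 2 CTL libraries for Adipoq, Cfd and Apln.

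The libraries held 17.2 to 29.4 M reads (M is 1e+06), and 3 reads, taken as the floor of detection, were worth 0.102 to 0.175 CPM. Nelfb itself was at 17.3, 19.6 and 22.3 CPM in CTL cultures and at 5.50, 3.90 and 5.55 CPM in Nelfb-/- cultures (log2 fold change -1.99, SE 0.22, adjusted p = 0.0050 in limma). The first principal component of log2 values (59.9% of the variance) separated the genotypes. The second (27.7%) set CTL 1, CTL 2 and Nelfb-/- 1 on one side and CTL 3, Nelfb-/- 2 and Nelfb-/- 3 on the other, with CTL 3 and Nelfb-/- 1 farthest apart. The sources used here give no batch that matches this split. The cells labelled as adipocytes expressed all 10 adipocyte markers that were examined (Plin1, Fabp4, Cidec and others, none of them a member), whose summed level was 19866 to 28742 CPM in CTL cultures and 11335 to 23211 CPM in Nelfb-/- cultures.

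The sequences just before the transcription starts of Lep and Lepr, which rose, of Retn, which fell, and of Adipoq, which did not pass, are shown because NELF acts close to gene starts and these genes include members with positive and with negative log2 fold changes. Each is the 100 bases upstream of a RefSeq start on GRCm38.p6, read 5′ to 3′ on the strand of the gene, with letters of a searched motif on either strand in capitals. They lie at chr6:29060121-29060220 (Lep), chr4:101717307-101717406 (the first of 2 Lepr starts), chr16:23146436-23146535 (Adipoq) and chr8:3655670-3655769 (Retn), all on the plus strand.
Lep: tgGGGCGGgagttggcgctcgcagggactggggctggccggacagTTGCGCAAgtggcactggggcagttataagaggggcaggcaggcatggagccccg
Lepr: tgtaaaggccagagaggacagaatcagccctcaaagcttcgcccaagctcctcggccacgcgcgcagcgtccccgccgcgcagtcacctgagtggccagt
Adipoq: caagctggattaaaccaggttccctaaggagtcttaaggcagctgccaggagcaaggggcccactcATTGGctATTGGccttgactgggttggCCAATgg
Retn: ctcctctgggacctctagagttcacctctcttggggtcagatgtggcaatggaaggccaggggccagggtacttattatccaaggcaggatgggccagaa

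The motifs searched on both strands over the 250 bases before each start were TATAAA (the TATA box core), CCAAT (the CCAAT box), GGGCGG (the GC box), CACGTG (an E-box), TTGCNNAA (the core bound by C/EBP factors), AGGTCA (a core bound by nuclear receptors) and AGAACA (a core bound by the glucocorticoid receptor). Lep held a GC box from -98 to -93 and a palindromic C/EBP core from -55 to -48, counted back from the start. Adipoq held CCAAT boxes at -34 to -30, -27 to -23 and -7 to -3. The first Lepr start had a CCAAT box at -195 to -191, upstream of the bases printed, and Retn had no match. Over 32851 windows of this length, a C/EBP core was found in 9.56%, a CCAAT box in 33.9%, a GC box in 32.7%, TATAAA in 12.4%, CACGTG in 6.02%, AGGTCA in 14.0% and AGAACA in 16.1%. Of the 9 members that had a window, Lep, Lcn2 and the second start of Rbp4 held a C/EBP core, and Cfd had no motif, as Retn. These are matches of letters and not sites of binding.

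Lep (ENSMUSG00000059201, chromosome 6 from 29060220 to 29073877 on GRCm38), the gene of leptin, was close to the floor in CTL 1 and CTL 2. It was measured at 0.180, 0.373 and 2.04 CPM in CTL 1, 2 and 3, which corresponds to 4, 8 and 60 reads. In Nelfb-/- 1, 2 and 3 it was at 10.3, 32.4 and 33.0 CPM. The lowest Nelfb-/- library thus stood above the highest CTL library, and CTL 3 stood apart from the other 2 CTL libraries. The summed level of fibroblast and preadipocyte markers is given with Apln and came mostly from Col1a1 and Col3a1. It was likewise highest in CTL 3 among CTL libraries and lowest in Nelfb-/- 1 among Nelfb-/- libraries. Its part in the level of Lep was not tested. The means were 0.865 ± 1.02 CPM in CTL cultures and 25.3 ± 12.9 CPM in Nelfb-/- cultures (SD, n = 3 each), a log2 fold change of 5.26 (SE 0.88, adjusted p = 0.0136 in limma). Fits that left out 1 library gave 4.58 to 6.19. The adjusted p missed the threshold without CTL 2 (0.0571), without Nelfb-/- 2 (0.0526) and without Nelfb-/- 3 (0.0669).

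Lepr (ENSMUSG00000057722, chromosome 4 from 101717404 to 101815352), the receptor of leptin, also rose from a low level. It was at 0.722, 0.607 and 0.306 CPM in CTL 1, 2 and 3, or 16, 13 and 9 reads, and at 11.7, 2.15 and 3.96 CPM in Nelfb-/- 1, 2 and 3. Every Nelfb-/- library was above every CTL library, with Nelfb-/- 1 far above the other 2. Group means were 0.545 ± 0.215 and 5.94 ± 5.08 CPM (SD, n = 3 each) and the log2 fold change was 3.07 (SE 0.66, adjusted p = 0.0280 in limma), with a range of 2.41 to 3.62 over the fits that left out 1 library. Its call was lost without CTL 1 (adjusted p = 0.0718), without CTL 2 (0.0836) and without Nelfb-/- 3 (0.0946). The ligand and its receptor differed in which Nelfb-/- library was highest, since Nelfb-/- 1 had the least Lep and the most Lepr. The summed level of 10 macrophage markers followed the order of Lepr over the 6 libraries, at 789, 419 and 218 CPM in CTL 1, 2 and 3 and at 6665, 2131 and 3613 CPM in Nelfb-/- 1, 2 and 3. Of these markers, 9 of 10 rose and none was at 0 in any library. The part of the cells they mark in the level of Lepr was not tested.

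Among 18 genes of leptin receptor signalling, 4 rose, 1 fell and 13 did not pass, with a median log2 fold change of 0.08. Socs3, a feedback inhibitor that leptin signalling can induce, rose from 9.74, 6.25 and 18.0 CPM in CTL to 29.4, 50.1 and 45.0 CPM in Nelfb-/- cultures (log2 fold change 1.97, SE 0.41, adjusted p = 0.0247 in limma). Among Nelfb-/- libraries Socs3, Lep and the cytokine gene Il6, given below, were lowest in Nelfb-/- 1, where Lepr was highest. What raised Socs3 was not tested. Its relative Socs1 rose by 1.68 on the log2 scale, and so did the tyrosine phosphatases Ptpn1, which removes phosphate from JAK2, by 1.16, and Ptpre by 2.67. Ptpre was at 2.75, 1.26 and 1.16 CPM in CTL 1, 2 and 3 and at 21.6, 6.29 and 8.28 CPM in Nelfb-/- 1, 2 and 3, the library order of the macrophage markers, whose part in its increase was not tested. Ptpn2, another phosphatase of this list that acts on JAK kinases, did not pass (log2 fold change -0.14, adjusted p = 0.665). Irs1, an insulin receptor substrate, fell by 1.03 on the log2 scale. Jak2 was at 59.4 to 64.7 CPM in CTL cultures and at 106 to 123 CPM in Nelfb-/- cultures, with a log2 fold change of 0.89 (adjusted p = 0.0081) that did not reach 2-fold. For Stat3 the log2 fold change was 0.52 (adjusted p = 0.121).

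**Figure D2:**
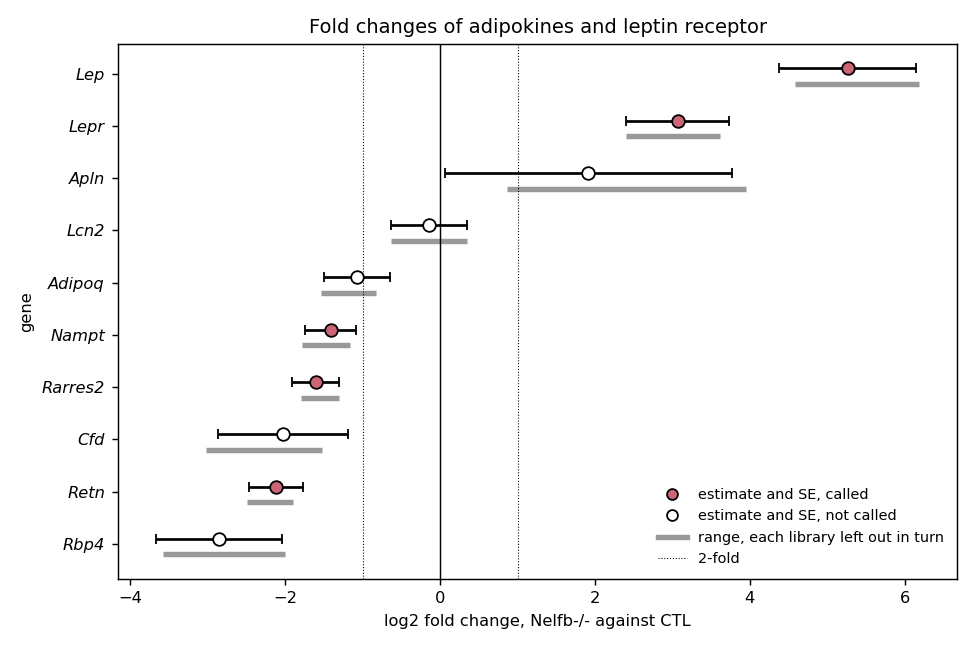
Log2 fold change of each member in Nelfb-/- against CTL cells, as estimate and standard error (points and thin bars) and as the range over 6 fits that each leave out 1 library (grey bars). Filled points passed the adjusted p and the 2-fold limit. Lep, at 5.26, and Lepr, at 3.07, lie opposite to Retn, Rarres2 and Nampt, and the range of Lcn2 crosses 0.

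Adipoq (ENSMUSG00000022878, chromosome 16 from 23146536 to 23158028), the gene of adiponectin, had the highest mean level of the members per exon length in both genotypes. It was at 1768, 1857 and 698 CPM in CTL 1, 2 and 3 and at 488, 802 and 630 CPM in Nelfb-/- 1, 2 and 3. The groups overlapped, because CTL 3 was below Nelfb-/- 2. Its mean was 1441 ± 645 CPM in CTL cultures and 640 ± 158 CPM in Nelfb-/- cultures (SD, n = 3 each), with a log2 fold change of -1.07 (SE 0.43, adjusted p = 0.140 in limma). Without CTL 3 the log2 fold change was -1.53 and passed (adjusted p = 0.0158), and over the other fits that left out 1 library it lay between -1.25 and -0.83. Adipoq and Rarres2 are among the adipogenic genes that the study picked from these same libraries, so their direction here is not independent evidence. The study counted Adipoq among its downregulated genes, whereas in the limma fit with all libraries it did not pass. By RT-qPCR, the study also reported lower Adipoq in Nelfb-/- cells and in the dermis of Nelfb-/- mice. The dermis samples were not part of these libraries.

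Adiponectin is folded and retained by a set of endoplasmic reticulum proteins before it is secreted, and 9 such genes were tested. Gstk1, also known as DsbA-L and involved in adiponectin multimer assembly, was the one that passed, with 12.8, 10.6 and 8.40 CPM in CTL cultures and 5.03, 4.25 and 4.28 CPM in Nelfb-/- cultures (log2 fold change -1.20, adjusted p = 0.0178). The other 8 did not pass, and the median of the 9 was 0.33. Neither adiponectin receptor passed, with a log2 fold change of -0.17 for Adipor1 (190 to 260 CPM in CTL cultures and 175 to 256 CPM in Nelfb-/- cultures, adjusted p = 0.613) and of -0.40 for Adipor2 (adjusted p = 0.316). Cdh13, the cadherin that binds adiponectin multimers, had a log2 fold change of -0.11 (adjusted p = 0.877). Of 12 genes for adipokine receptors and receptor adaptors other than Lepr, Lrp2 alone passed, and it fell.

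Retn (ENSMUSG00000012705, chromosome 8 from 3655770 to 3660110), the gene of resistin, fell in every Nelfb-/- library. CTL 1, 2 and 3 had 427, 470 and 206 CPM, and Nelfb-/- 1, 2 and 3 had 103, 75.6 and 64.6 CPM. The groups stayed apart, and CTL 3 was the lowest of the CTL libraries here as for Adipoq. The log2 fold change was -2.12 (SE 0.35, adjusted p = 0.0129 in limma), from means of 368 ± 142 and 81.0 ± 19.6 CPM (SD, n = 3 each), and it ranged from -2.49 to -1.90 over the fits that left out 1 library. It passed in 2 of those 6 fits. The adjusted p was 0.0534 without CTL 1, 0.0512 without CTL 2 and 0.0662 without Nelfb-/- 3, and it lay just above 0.05 without Nelfb-/- 2. Retnla, the resistin-like paralog that was in the table, was at most at 2.97 CPM (log2 fold change 1.99, adjusted p = 0.181).

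Cfd (ENSMUSG00000061780, chromosome 10 from 79890853 to 79892655), the gene of adipsin, was at 982, 958 and 124 CPM in CTL 1, 2 and 3 and at 207, 98.6 and 83.9 CPM in Nelfb-/- 1, 2 and 3. CTL 3 was lower than Nelfb-/- 1 and held less than CTL 1 or CTL 2 by a wide margin. Means of 688 ± 489 and 130 ± 67.3 CPM (SD, n = 3 each) gave a log2 fold change of -2.03 (SE 0.84, adjusted p = 0.152 in limma). Leaving out CTL 3 moved it to -3.02 (adjusted p = 0.0095), which passed, and no other single library did so. It was -1.53 without CTL 1 (adjusted p = 0.371) and -1.54 without CTL 2 (0.372). The genes of the alternative complement pathway around adipsin did not share a direction: among 12 tested, 5 rose, 1 fell and 6 did not pass, with a median log2 fold change of 1.13.

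C3, the central complement protein whose breakdown the factor D protease sets in motion, fell from 1222, 1248 and 768 CPM in CTL to 212, 85.9 and 97.3 CPM in Nelfb-/- cultures (log2 fold change -3.12, SE 0.39, adjusted p = 0.0064 in limma). Cfb, the substrate of factor D, had a log2 fold change of 0.16 (adjusted p = 0.777). Among the genes that rose were Cd55, a membrane inhibitor, by 1.88, Cfp, properdin, by 2.52, and the receptors C3ar1 and C5ar1 by 2.93 and 3.48 on the log2 scale. C3ar1 was at 31.1, 14.9 and 11.0 CPM in CTL cultures and at 242, 79.3 and 118 CPM in Nelfb-/- cultures, so that its order over the libraries was that of the summed macrophage markers. Cfp and the 2 receptors are known in myeloid cells, and the part of such cells in their increase was not tested.

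Rbp4 (ENSMUSG00000024990, chromosome 19 from 38116629 to 38125281), the retinol carrier, was lower in all 3 Nelfb-/- libraries without passing the test. It was at 105, 140 and 312 CPM in CTL 1, 2 and 3 and at 6.97, 63.1 and 27.4 CPM in Nelfb-/- 1, 2 and 3. Here CTL 3 was the highest library, in contrast to Adipoq, Retn and Cfd, and Nelfb-/- 1 was the lowest by a wide margin. With means of 186 ± 111 and 32.5 ± 28.4 CPM (SD, n = 3 each), its log2 fold change was -2.85 (SE 0.82, adjusted p = 0.0615 in limma) and ranged from -3.58 to -1.997 over the fits that left out 1 library. It passed without Nelfb-/- 2 (adjusted p = 0.0471). Of 10 listed genes of retinol carriage 2 were tested and neither passed. Stra6, the receptor of the retinol carrier, was not found by that symbol among the genes with values, so it was not tested.

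Rarres2 (ENSMUSG00000009281, chromosome 6 from 48569696 to 48572789), the gene of the chemoattractant chemerin, fell. Its values were 110, 121 and 218 CPM in CTL 1, 2 and 3 and 53.8, 53.7 and 35.5 CPM in Nelfb-/- 1, 2 and 3. The groups were apart and, as for Rbp4, CTL 3 was the highest library. The log2 fold change was -1.60 (SE 0.31, adjusted p = 0.0193 in limma), from means of 150 ± 59.4 and 47.7 ± 10.5 CPM (SD, n = 3 each), with a range of -1.79 to -1.30 over the fits that left out 1 library. The call was lost without CTL 2 (adjusted p = 0.0571), without Nelfb-/- 2 (0.0538) and without Nelfb-/- 3 (0.0804). On the opposite strand, exons of Lrrc61 share 892 bases with Rarres2, which is 33.6% of its exon length, and the sources used here do not say whether counting used strand. Lrrc61 was at 17.1 to 19.8 CPM in CTL cultures and at 13.8 to 19.7 CPM in Nelfb-/- cultures (log2 fold change -0.22, adjusted p = 0.463).

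Chemerin is secreted as a precursor that proteases cut into the active form. Of 7 genes for such proteases that were tested, 3 rose and none fell. Plat, tissue plasminogen activator, rose from 5.86, 4.99 and 11.3 CPM to 147, 169 and 170 CPM (log2 fold change 4.54, SE 0.31, adjusted p = 0.0032 in limma). Plau, urokinase, rose by 1.22 and the lysosomal protease Ctss by 2.68 on the log2 scale. Ctss, which macrophages express strongly, had 1015 CPM in Nelfb-/- 1 against 249 and 408 CPM in the other 2 Nelfb-/- libraries, the order of the macrophage markers given above. The part of macrophages in its increase was not tested. Cmklr1, the chemerin receptor, was at 29.8, 19.7 and 34.0 CPM in CTL cultures and at 137, 39.5 and 61.8 CPM in Nelfb-/- cultures, with no overlap and a log2 fold change of 1.35 that did not pass (adjusted p = 0.0969).

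Nampt (ENSMUSG00000020572, chromosome 12 from 32819545 to 32853349), which encodes the rate-limiting enzyme of NAD salvage and is also released from cells as visfatin, fell. CTL 1, 2 and 3 were close together at 677, 644 and 777 CPM, whereas Nelfb-/- 1, 2 and 3 were at 439, 219.5 and 186 CPM. The groups did not overlap, and Nelfb-/- 1 was the library nearest to CTL. The log2 fold change was -1.41 (SE 0.33, adjusted p = 0.0350 in limma), with means of 699 ± 69.4 and 282 ± 137 CPM (SD, n = 3 each). Of the 5 calls this one held in the fewest fits that left out a library, 1 of 6, that without Nelfb-/- 1 (log2 fold change -1.78, adjusted p = 0.0092). The adjusted p was 0.108 without CTL 1, 0.102 without CTL 2, 0.0606 without CTL 3, 0.113 without Nelfb-/- 2 and 0.126 without Nelfb-/- 3. Among 17 other genes of NAD synthesis and use, Cd38, an NAD-consuming enzyme of leukocytes, rose by 7.98-fold, Sirt3, a mitochondrial NAD-dependent deacylase, fell by 2.22-fold, and 15 did not pass. Cd38 was again highest in Nelfb-/- 1, at 110 CPM against 34.7 and 50.8 CPM in the other 2 Nelfb-/- libraries. The part of leukocytes in its increase was not tested.

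Apln (ENSMUSG00000037010, chromosome X from 48025146 to 48034853), the gene of the vascular peptide apelin, varied more within the groups than between them. It was at 1.71, 1.91 and 126 CPM in CTL 1, 2 and 3 and at 5.36, 83.6 and 51.5 CPM in Nelfb-/- 1, 2 and 3. The libraries fell into a low set of CTL 1, CTL 2 and Nelfb-/- 1 and a high set of CTL 3, Nelfb-/- 2 and Nelfb-/- 3, the split of the second principal component. Means were 43.2 ± 71.8 and 46.8 ± 39.4 CPM (SD, n = 3 each), and the log2 fold change of 1.92 (SE 1.85, adjusted p = 0.517 in limma) took values of 0.86 to 3.94 over the fits that left out 1 library. The summed level of 10 fibroblast and preadipocyte markers was high in the same 3 libraries, at 3104, 2626 and 11940 CPM in CTL 1, 2 and 3 and at 6413, 24127 and 25711 CPM in Nelfb-/- 1, 2 and 3. Most of this sum came from Col1a1 and Col3a1, neither of which passed. Col1a1 was at 1673, 1452 and 7343 CPM in CTL 1, 2 and 3 and at 2727, 11073 and 12571 CPM in Nelfb-/- 1, 2 and 3. Of the 10 markers 9 were tested, 2 of them rose and none was at 0 in any library. The 2 that rose, Dlk1 and Dpp4, were lower in CTL 3 than in Nelfb-/- 1, whereas Ly6a and Thy1 were higher in CTL 3. The part of these markers in the level of Apln was not tested. Of 6 genes of the apelin system, Agt, the precursor of angiotensin, and Mme, the peptidase neprilysin, fell by 2.02 and 1.23 on the log2 scale, and 4 did not pass. The apelin receptor gene Aplnr was not found by that symbol among the genes with values, so it was not tested.

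Lcn2 (ENSMUSG00000026822, chromosome 2 from 32384633 to 32388252), the gene of lipocalin 2, which binds bacterial siderophores, was at 2.89, 5.74 and 11.5 CPM in CTL 1, 2 and 3 and at 4.27, 6.11 and 5.43 CPM in Nelfb-/- 1, 2 and 3. All 3 Nelfb-/- libraries lay within the range of the CTL libraries. The log2 fold change was -0.14 (SE 0.49, adjusted p = 0.869 in limma) and turned to 0.35 without CTL 3 (adjusted p = 0.503). Lrp2, the endocytic receptor megalin that takes up lipocalin 2 among many ligands, fell from 22.4, 13.5 and 7.68 CPM to 0.996, 3.73 and 2.61 CPM (log2 fold change -2.61, SE 0.58, adjusted p = 0.0307 in limma). It was 1 of 5 genes tested around lipocalin 2, and the other 4 did not pass. Slc22a17, the other lipocalin 2 receptor, had a log2 fold change of -0.40 (adjusted p = 0.351).

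The levels of Lep and Adipoq were also set against each other within each library. For each CPM of Lep there were 9801, 4974 and 342 CPM of Adipoq in CTL 1, 2 and 3 and 47.2, 24.7 and 19.1 CPM in Nelfb-/- 1, 2 and 3. The libraries of the groups did not overlap, with CTL 3 nearest to the Nelfb-/- libraries. On log2 values with 1 read added at the common depth, as in the limma fit, which moves the low CTL values of Lep closer to the others, the log2 ratio of Lep to Adipoq was -11.1 ± 2.43 in CTL and -4.81 ± 0.67 in Nelfb-/- cells (SD, n = 3 each), a difference of 6.34 (exact two-sided permutation test p = 0.1, the smallest that 3 against 3 libraries allow). Leaving out single libraries gave 5.44 to 7.72. The ratio is not corrected for the lengths of the genes, and the larger part of its difference lay in Lep, whose log2 fold change was 5.26 against -1.07 for Adipoq. The difference is that between these 2 fold changes, so the permutation test adds no evidence beyond them.

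**Figure D3:**
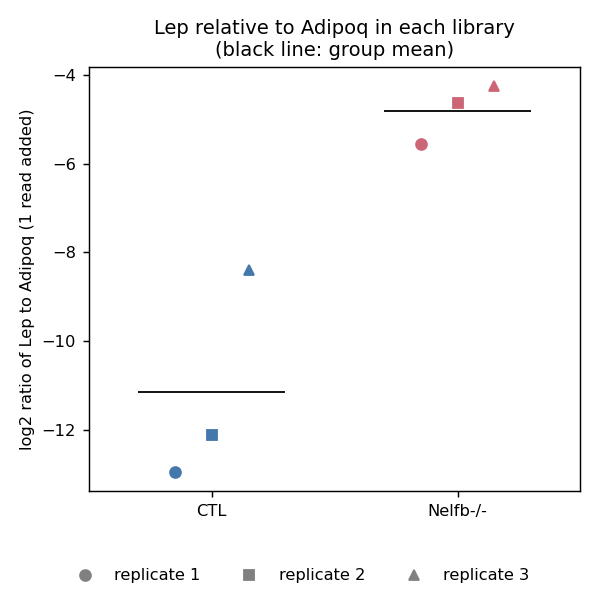
Log2 ratio of Lep to Adipoq, each with 1 read added at the common depth, with 1 point per library and the group mean as a black line. The CTL libraries lie between -12.9 and -8.39 and the Nelfb-/- libraries between -5.55 and -4.25.

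Levels were compared between members as CPM per kilobase of all annotated exons of a gene. In CTL cells the order of the means was Adipoq (1043), Cfd (746), Retn (233), Nampt and Rbp4 (138 each), Rarres2 (56.3), Apln (13.7), Lcn2 (2.56), Lep (0.258) and Lepr (0.0773). Between 7 of 9 neighbours in this order the ranges over the CTL libraries overlapped, and Rarres2 against Apln and Lcn2 against Lep were apart. In Nelfb-/- cells the order was Adipoq (463), Cfd (141), Nampt (55.7), Retn (51.3), Rbp4 (24.2), Rarres2 (17.9), Apln (14.9), Lep (7.53), Lcn2 (2.01) and Lepr (0.843). There 3 of 9 neighbours were apart, Adipoq against Cfd, Cfd against Nampt and Lep against Lcn2. By group means Lep thus stood below Lcn2 in CTL cells and above it in Nelfb-/- cells. Lepr had the lowest mean in both genotypes, but its library range overlapped with that of Lep in CTL cells and that of Lcn2 in Nelfb-/- cells.

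Among 34 other genes of secreted adipokines that were tested, 6 rose, 5 fell and 23 did not pass, with a median log2 fold change of 0.29. Among the genes that passed, the 3 largest increases were those of Il6, Ccl2 and Dpp4. Il6, an inflammatory cytokine, had 1 read in each CTL library and 18, 37 and 49 reads in Nelfb-/- 1, 2 and 3, a ratio of reads per depth of 40.3 with an exact 95% interval of 13.4 to 199 that covers counting error only and, with 1 read added, a fitted log2 fold change of 4.20 (adjusted p = 0.0060 in limma). Ccl2, a monocyte chemoattractant, rose from 3.16, 2.85 and 9.25 CPM to 63.6, 54.3 and 61.0 CPM (log2 fold change 3.75, adjusted p = 0.0058). Dpp4, a peptidase shed from adipocytes that also marks fibroblast precursors, rose by 2.20 on the log2 scale.

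Among the genes of that list that passed, the 3 largest decreases were those of Gpx3, Agt and Nrg4. Gpx3, the secreted glutathione peroxidase, fell from 2447, 2645 and 1059 CPM to 648, 386 and 305 CPM (log2 fold change -2.16, adjusted p = 0.0245 in limma). Agt fell from 1972, 1982 and 1575 CPM to 631, 383 and 380 CPM (log2 fold change -2.02, adjusted p = 0.0077). Nrg4, a neuregulin that brown fat secretes, fell by 1.99 on the log2 scale. Like the members, these genes of secreted proteins moved in both directions. The libraries of each named gene were apart between the genotypes, as were those of 38.1% of all genes tested. These genes were named for the size of their change, which favours such a separation.

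**Figure D4:**
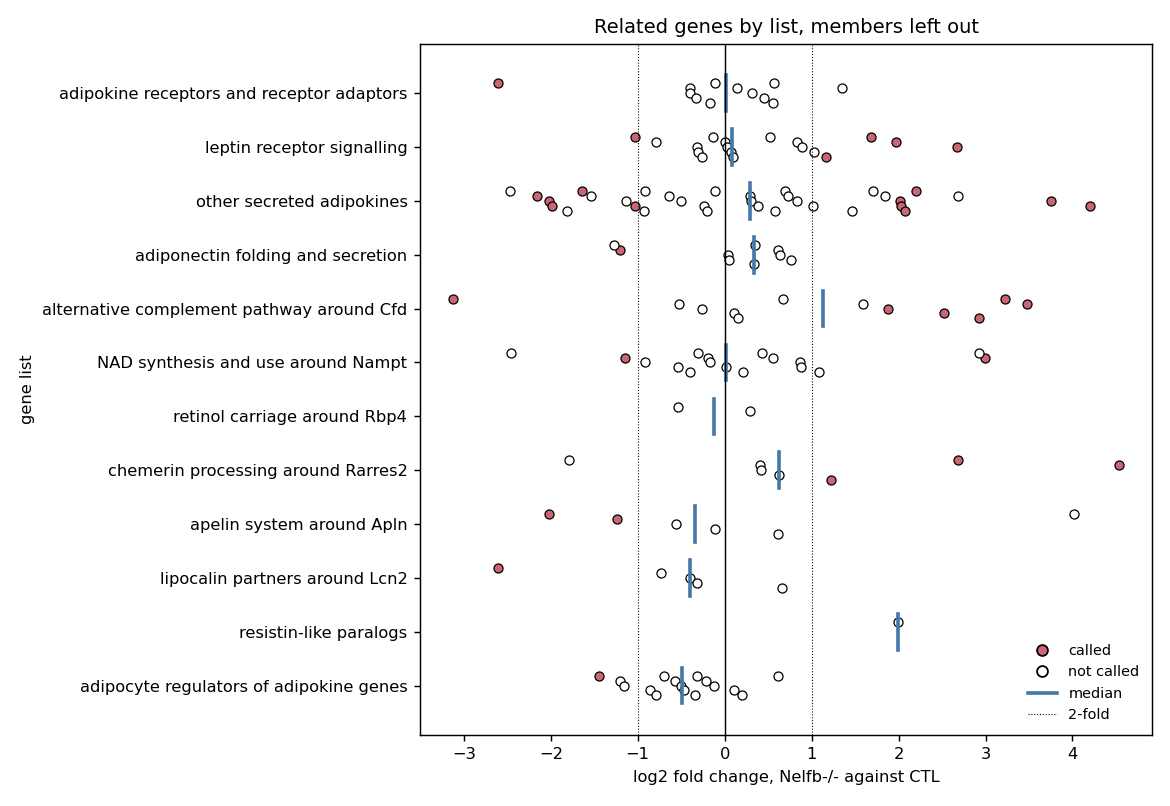
Log2 fold change in Nelfb-/- against CTL cells of the tested genes of 12 related lists, without the members, with 1 point per gene, filled where the gene passed, and the median of each list as a blue line. Genes of the complement list reach from -3.12 (C3) to 3.48 (C5ar1), and the median of the 16 adipocyte regulators lies at -0.49.

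Of 16 transcription factors known to regulate adipokine genes in adipocytes, 1 passed, against 11.2% of all genes tested, and the median log2 fold change was -0.49, against 0.07 over all genes tested. Klf15, a glucocorticoid-induced factor of mature adipocytes, fell from 95.3, 106 and 74.1 CPM to 53.5, 28.5 and 24.2 CPM (log2 fold change -1.45, SE 0.32, adjusted p = 0.0291 in limma). Pparg, the master regulator of fat cell differentiation, was at 158, 150 and 112 CPM in CTL cultures and at 98.5, 110 and 85.2 CPM in Nelfb-/- cultures (log2 fold change -0.51, adjusted p = 0.111). The groups were apart at Pparg by a small margin. For Cebpa, which acts with Pparg and whose family binds the C/EBP core printed for Lep, the log2 fold change was -0.21 (adjusted p = 0.695), with 552 CPM in CTL 3 as its lowest value.

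Markers of other cells also moved between the groups. The median log2 fold change of adipocyte markers was -0.70, and 2 of 10, Slc2a4 and Aqp7, fell. Macrophage markers had a median of 3.01. Of 9 Schwann cell markers tested 6 rose and 1 fell, with sums of 182 to 363 CPM in CTL cultures and 492 to 577 CPM in Nelfb-/- cultures. Most of the Schwann cell sums came from Pmp22, which did not pass and was at 105 to 295 CPM in CTL cultures and at 269 to 374 CPM in Nelfb-/- cultures, and each of the 6 that rose was at 50.9 CPM or less in every library. Of 9 melanocyte markers 6 rose, with sums of 142 to 453 CPM and 251 to 1553 CPM. These sums were largely those of Gpnmb, which did not pass and was at 93.2 to 386 CPM in CTL cultures and at 196 to 1376 CPM in Nelfb-/- cultures, whereas each of the 6 that rose was at 34.9 CPM or less in every library. The melanocyte markers Tyr and Slc45a2 were at 0 in all 3 CTL libraries. Keratinocyte and endothelial markers summed to at most 19.3 and 31.2 CPM in any library, and neutrophil markers, of which 2 could be tested, to at most 10.6 CPM. The part of these cells in the levels of the members was not tested.

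**Figure D5:**
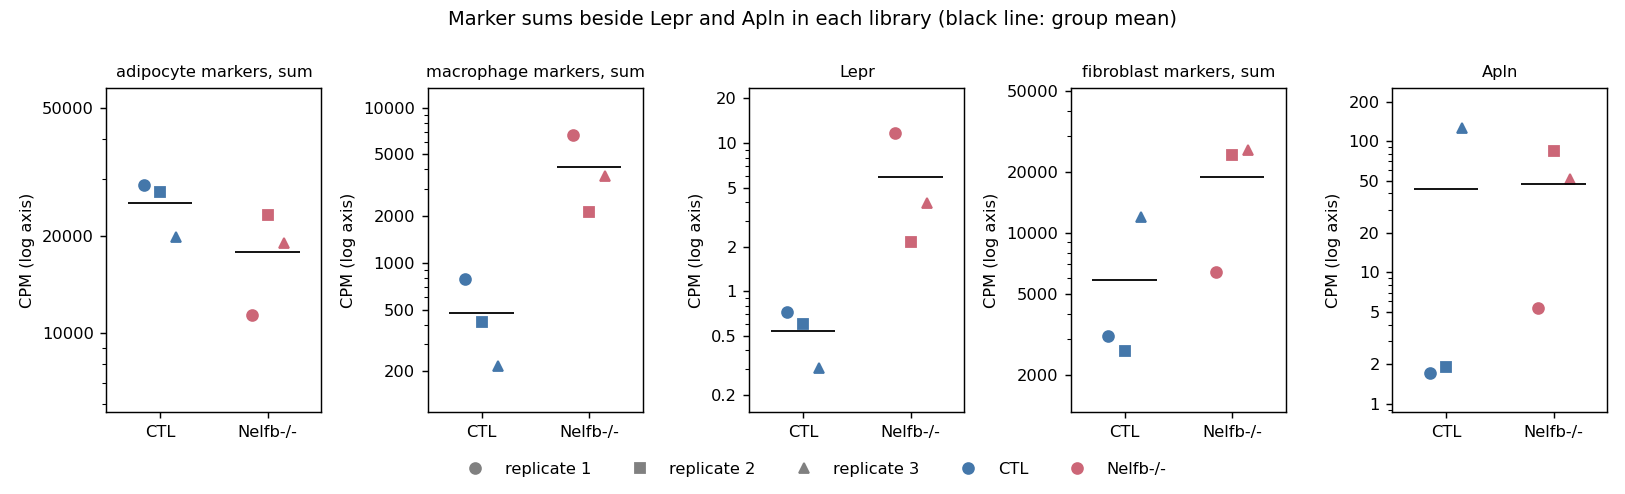
Summed CPM of adipocyte, macrophage and fibroblast markers (10 genes each) beside the CPM of Lepr and Apln in each library, on log axes, with the group mean as a black line. Macrophage markers and Lepr are both highest in Nelfb-/- 1 and lowest in CTL 3, and fibroblast markers and Apln are both lowest in CTL 1 and CTL 2.

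The genes whose log2 values followed Adipoq, Lep or Lepr most closely over the 6 libraries were sought among 13577 protein-coding genes. For Adipoq these included Met, Pnck, Pkp2 and Mrpl38, with Pearson's r from 0.998 down to 0.995. Lep was followed by Jrk, Synpo, Klhl34, Pno1 and Hs2st1 (r of 0.999 for each), and Lepr by Neb, Aak1, Zswim6, Fpr1 and Nvl (r from 0.998 down to 0.996). Each r rests on 6 points that share genotype and library, and 12, 60 and 27 genes exceeded 0.99 for Adipoq, Lep and Lepr.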

How the data were processed

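RNA was sequenced in 3 CTL and 3 Nelfb-/- cultures. The submitters' processing notes name mm10, STAR 2.7 and Partek 9.0.20.0202. The study's methods name another package for alignment, ANOVA in Partek and a minimum of 10 reads. How reads were counted is not given in the sources used here. The authors deposited CPM values with an offset of 0.0001, which was subtracted. Each column then summed to 1e+06. From 72.4% to 75.0% of values up to 20 reads were whole within 0.05 read, so no count-based test was run. Depth was 17.2 to 29.4 M reads. The end of each gene is given as the base before the stop of the authors' table, which made 99.0% of 17520 genes matched by name equal in position to GENCODE vM21. Ensembl IDs come from there, and promoter sequences from RefSeq (GRCm38.p6), where 9 of 10 members matched.

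Values were scaled to a common depth of 22.3 M reads (M, 1e+06). Genes averaging 10 reads or more were tested on log2(reads + 1), which understates changes of low genes, with limma 3.58.1 (R 4.3.3) and an abundance trend in the variance. P-values were adjusted by Benjamini-Hochberg over all 16252 genes, and calls were made at 2-fold and an adjusted p no higher than 0.05. The script was tested on simulated data. The members and lists were chosen with earlier results of these data known. Genes named are the 10 members, Nelfb, direct partners, called genes of related lists (the 3 largest increases and decreases where over 6 were called) and the 5 genes most like Adipoq, Lep and Lepr. Some genes that this rule names are not reported here. Ptpn2, Gpnmb, Pmp22, Tyr, Slc45a2, Lrrc61 and Retnla were singled out after their values were seen. Replicate numbers were not taken to pair samples. The cultures are biological triplicates per the study's methods.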

Additional observations from a re-analysis of the deposited data

How the results depend on the processing

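Other pseudocounts, filters and scalings and a fit without the variance trend left 5 members called, and no scaling moved the median of all genes by over 0.1 on the log2 scale. Of 160 values of members under alternatives, 126 kept direction and side of the threshold, 23 lost the call, 9 gained one and 2 reversed, both of Lcn2 (0.35 without CTL 3 in a range of -0.64 to 0.35 over single libraries left out, and 0.50 without both CTL 3 and Nelfb-/- 1). Without moderation of the variances in limma 684 genes and 0 members were called, 5 members having an unadjusted p under 0.05. With each library left out in turn, 426 to 2480 genes and 0 to 6 members were called. The count of members was 0 in limma without CTL 2 and without Nelfb-/- 3 (6 with an unadjusted p under 0.05 in each), 2 without CTL 1 and without Nelfb-/- 2, 5 without Nelfb-/- 1 and 6 without CTL 3. These fits have 1 library less, and further causes were not tested. Leaving out both CTL 3 and Nelfb-/- 1, a choice made after seeing the data that takes out the libraries farthest from their groups and so lowers the spread by construction, gave 4383 genes and 9 members. The log2 ratio of Lep to Adipoq was rerun with 5 reads added and with each library left out. It kept its direction, which follows from those of Lep and Adipoq.

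Replicate numbers were checked for pairing by the correlation of deviations from the group means, which was 0.52, -0.39 and 0.52 for numbers 1, 2 and 3, and not every library correlated best with its own number, so the numbers were not taken as pairs. With the replicate block 2175 genes and 7 members were called, Cfd (adjusted p = 0.0408) and Rbp4 (0.0195) being added. Lep and Lepr in CTL cells rest on 4 to 60 reads per library, which limits the precision of their folds.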
